A study of Homo sapiens with 11 samples.

Results

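The genes described here encode the main folding machinery of the cytosol and of the mitochondrial matrix, together with 2 heat shock transcription factors. They are 35 genes listed by symbol, with no threshold on a measured value but with earlier results of these data known, out of 61464 gene IDs in a table of read counts, and all 35 were found in it. The cells were HCT116, an established human line of epithelial cells from a colorectal carcinoma, which per the labels carries a ras mutation. They had been kept for 48 h with GTEA1 (4 libraries), with GTEA7 (4 libraries) or with DMSO, the solvent control (3 libraries). GTEA1 and GTEA7 are triterpenoid extracts of Ganoderma, a genus of bracket fungi, and the series is about their effects on stem-like traits and movement of tumour cells. No dose is given, every library is labelled as batch 1, and all come from this 1 line. The labels do not say that replicates were separate cultures, so p-values measure the spread between these libraries, which may be technical.

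Chaperones bind unfolded protein chains and let them fold. HSP70 proteins, driven by J-domain partners and reset by nucleotide exchange factors, hold many new chains. HSP90 with its cochaperones finishes kinases and steroid receptors, and the ring chaperonin TRiC (also called CCT) folds actin and tubulin. In the mitochondrial matrix HSPA9 receives imported proteins and the HSPD1/HSPE1 chamber folds them. HSF1 is the transcription factor that switches on many of these genes under heat and other damage to proteins, through heat shock elements in their promoters.

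With GTEA1, most of the cytosolic chaperone RNAs fell, while HSPA9 and DNAJA3 of the mitochondrial matrix and the factor HSF1 rose. With GTEA7, most of the same 35 genes were slightly higher than in DMSO, and none fell. In bulk libraries such as these, fewer cells with a given RNA and less of it per cell cannot be told apart. Levels are given as CPM, counts per 1000000, scaled for library size and, by TMM factors, for RNA composition. Values after ± are SDs for CPM (n = 4 for GTEA1, n = 4 for GTEA7, n = 3 for DMSO) and standard errors for log2 fold changes. A gene passed at an adjusted p under 0.05 in the quasi-likelihood test of edgeR, adjusted by Benjamini-Hochberg over the 17963 genes that had enough counts, which 33 of the 35 genes did. Against DMSO, 23 of the 33 fell and 8 rose with GTEA1, beside 36.2% of all genes tested that fell and 35.6% that rose. With GTEA7, 22 of the 33 rose and 0 fell, beside 12% of all genes tested that rose and 10.4% that fell. No member was lower with GTEA7 at an unadjusted p under 0.05 either (16.5% of all genes tested were), and DESeq2 and limma-voom also called 0 lower and 22 higher. Every GTEA1 library lay below every DMSO library in 21 of the 33 genes and above in 7, beside 34.8% and 33.9% of all genes tested, and every GTEA7 library lay above in 22 and below in 0, beside 15.6% and 14.9%. Since both comparisons use the same DMSO libraries, they are not independent of each other.

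The changes with GTEA1 ranged on the log2 scale from -1.25 (DNAJA1) to 1.03 (DNAJA3), with a median of -0.25 over the 33 genes beside -0.0078 over all genes tested. A 2-fold change that passed was seen in 2 genes that fell, DNAJA1 and HSP90AA1, and in 1 that rose, DNAJA3, beside 12.4% of all genes tested for falls and 8.56% for rises. The changes with GTEA7 were smaller, from -0.11 (DNAJB4) to 0.33 (HSPE1), with a median of 0.14 beside -0.0087 over all genes tested. None reached 2-fold, which 0.295% of all genes tested did upward and 0.284% downward. These directions are relative to the bulk of the genes. When libraries were scaled by their size alone, the median of all genes tested moved to -0.167 for GTEA1 over DMSO, and all-gene calls were 4828 higher and 8179 lower in place of 6390 and 6505. For GTEA7 over DMSO that scaling gave 1255 higher and 2954 lower in place of 2159 and 1877. With it, the estimates of DNAJA2, TRAP1, CCT6A and HSF2 turned from higher to lower in GTEA1 (log2 -0.13, -0.029, -0.070 and -0.016), DNAJA2 and DNAJB6 (-0.19) then passing as lower. The members called with GTEA7 became 14 higher and 1 lower (HSPB1), the rises of HSP90AA1, FKBP4, HSPH1, DNAJA2, DNAJB1, DNAJA3, CCT5 and CCT7 no longer passing.

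**Figure D1:**
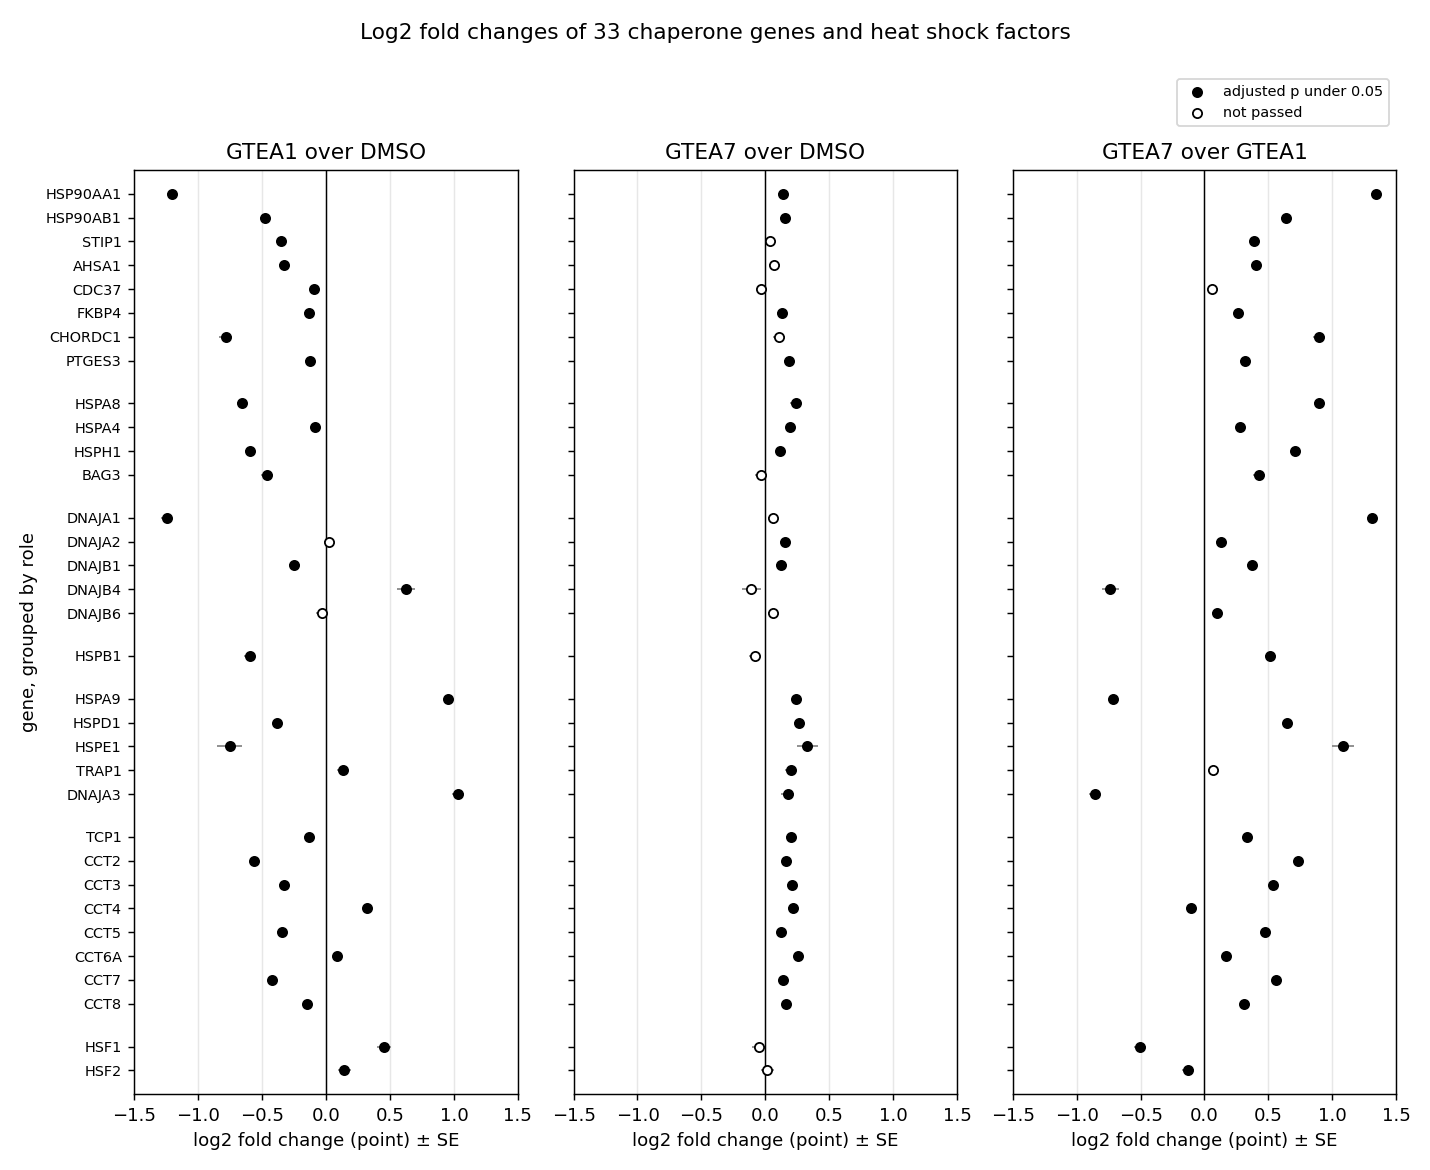
Log2 fold change (point) with its standard error (bar, often smaller than the point) of the 33 genes tested, grouped by role down the page, for GTEA1 over DMSO, GTEA7 over DMSO and GTEA7 over GTEA1. Filled points passed at an adjusted p under 0.05. The GTEA1 panel spreads from -1.25 to 1.03, the GTEA7 over DMSO panel only from -0.11 to 0.33.

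Heat shock elements are runs of GAA and its reverse complement TTC, and their letters were looked for in the promoters of these genes. RefSeq promoter windows (GRCh38.p14), 250 bases before to 50 after the start of the gene, were at hand for 32 of the 35 genes, the others being FKBP4, CCT6A and HSF1. Searched on both strands were 2 units 2 bases apart (GAANNTTC or TTCNNGAA) and 3 units with the same spacing (GAANNTTCNNGAA or TTCNNGAANNTTC), the second kind always holding the first. The 3-unit letters occurred in 4 of the 32 windows (12.5%), those of CHORDC1, HSPA8, DNAJA1 and DNAJB6, beside 0.49% of the 27305 windows of all genes. The 2-unit letters occurred in 10 of 32 (31.25%), beside 13.69% of all. The 4 windows are printed 5′ to 3′ on the strand of the gene, because the genes differ in their response to GTEA1, and capitals mark every GAA or TTC unit that lies in a match.
CHORDC1: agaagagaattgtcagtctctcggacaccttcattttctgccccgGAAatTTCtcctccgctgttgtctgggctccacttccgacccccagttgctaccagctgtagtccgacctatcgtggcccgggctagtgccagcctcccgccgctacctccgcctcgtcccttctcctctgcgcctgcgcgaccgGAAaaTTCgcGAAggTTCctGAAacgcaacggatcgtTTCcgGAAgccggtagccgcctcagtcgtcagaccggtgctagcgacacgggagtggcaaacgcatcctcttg
HSPA8: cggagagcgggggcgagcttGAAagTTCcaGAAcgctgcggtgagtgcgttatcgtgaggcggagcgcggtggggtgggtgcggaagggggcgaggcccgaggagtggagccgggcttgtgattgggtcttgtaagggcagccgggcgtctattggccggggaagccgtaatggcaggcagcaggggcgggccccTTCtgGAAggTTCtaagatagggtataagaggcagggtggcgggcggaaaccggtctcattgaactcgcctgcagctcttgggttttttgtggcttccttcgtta
DNAJA1: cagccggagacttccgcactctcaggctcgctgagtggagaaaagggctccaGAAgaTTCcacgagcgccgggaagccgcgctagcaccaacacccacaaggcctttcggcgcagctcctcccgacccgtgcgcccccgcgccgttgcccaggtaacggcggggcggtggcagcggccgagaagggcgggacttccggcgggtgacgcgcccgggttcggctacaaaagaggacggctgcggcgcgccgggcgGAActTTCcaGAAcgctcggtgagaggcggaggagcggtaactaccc
DNAJB6: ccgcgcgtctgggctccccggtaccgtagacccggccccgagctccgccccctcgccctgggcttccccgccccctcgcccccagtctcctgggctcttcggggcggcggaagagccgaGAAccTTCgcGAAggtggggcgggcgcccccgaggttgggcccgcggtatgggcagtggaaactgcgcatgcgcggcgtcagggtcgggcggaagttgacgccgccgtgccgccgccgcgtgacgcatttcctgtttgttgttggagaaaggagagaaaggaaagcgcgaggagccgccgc
The CHORDC1 window lies on the minus strand at chr11:90223000-90223299, that of HSPA8 on the minus strand at chr11:123062087-123062386, that of DNAJA1 on the plus strand at chr9:33025023-33025322 and that of DNAJB6 on the plus strand at chr7:157336754-157337053. Counted from the start of the gene, the 3-unit letters began at -60, -55 and -50 in CHORDC1, where they form 1 overlapping run, at -230 and -55 in HSPA8, at 4 in DNAJA1 and at -131 in DNAJB6. Of these 4 genes, CHORDC1, HSPA8 and DNAJA1 fell with GTEA1 (log2 -0.78, -0.66 and -1.25), while DNAJB6 did not pass (-0.035). Among the 26 other genes that were tested and had a window, 19 fell and 6 rose with GTEA1, with a median of -0.29. Over all genes tested, 36.2% fell and 35.6% rose with GTEA1. Only 1 start was used for each gene, so promoters at its other starts were not searched, and a window may miss the main promoter. A match to letters is not a measured binding site, and a window without one says nothing of HSF1 at that gene.

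All 8 genes of HSP90 and its cochaperones fell with GTEA1, beside 36.2% of all genes tested. Their summed level was 4530.5 to 4997 CPM in the GTEA1 libraries, 8190.0 to 8778 CPM in the GTEA7 libraries and 7593 to 7716 CPM in the DMSO libraries. HSP90AA1, the stress-inducible HSP90, had 1414, 1282, 1355 and 1206 CPM in the GTEA1 libraries, 3221, 3381, 3490.5 and 3230.3 CPM in the GTEA7 libraries and 3069.7, 2979 and 3026 CPM in the DMSO libraries. Every GTEA1 library lay far below every other library, and every GTEA7 library lay above the DMSO libraries. The level with GTEA1 was 2.30-fold lower than with DMSO (log2 fold change -1.20 ± 0.040, adjusted p = 5.23e-30), and with GTEA7 it was 1.10-fold higher (0.14 ± 0.040, adjusted p = 0.00831). HSP90AB1, the constitutive HSP90, had 2533, 2416, 2575 and 2328 CPM in the GTEA1 libraries, 3755, 3852, 3986 and 3723 CPM in the GTEA7 libraries and 3381, 3416 and 3516 CPM in the DMSO libraries. The same order held, GTEA1 lowest and GTEA7 highest with no overlap, but the fall was smaller, 1.40-fold (log2 -0.48 ± 0.037, adjusted p = 1.66e-16). The rise of HSP90AB1 with GTEA7 was 1.11-fold (log2 0.16 ± 0.037, adjusted p = 0.00138). Within each library, the counts of HSP90AA1 divided by those of HSP90AB1 gave 0.518 to 0.558 in GTEA1, 0.858 to 0.878 in GTEA7 and 0.861 to 0.908 in DMSO. That ratio is free of library scaling, and the GTEA1 libraries stood apart in it while GTEA7 and DMSO overlapped.

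Among the cochaperones, CHORDC1, an HSP90-binding protein, fell most with GTEA1. It had 34.1, 34.3, 32.3 and 32.5 CPM in the GTEA1 libraries, 63.1, 59.5, 65.1 and 59.2 CPM in the GTEA7 libraries and 58.3, 55.7 and 57.8 CPM in the DMSO libraries. Every GTEA1 library lay below every other, and the change was 1.72-fold (log2 -0.78 ± 0.051, adjusted p = 2.36e-19). With GTEA7 all 4 libraries of CHORDC1 lay above the DMSO libraries, but the change of 0.11 ± 0.046 did not pass (adjusted p = 0.0817), except without GTEA7 replicate 4 (0.13, adjusted p = 0.0456). STIP1, which hands clients from HSP70 to HSP90, ranged over 227 to 244 CPM in GTEA1, 301 to 315 CPM in GTEA7 and 295 to 307 CPM in DMSO. AHSA1, which speeds up the ATPase of HSP90, ranged over 82.4 to 90.3 CPM in GTEA1, 109 to 113 CPM in GTEA7 and 102 to 113 CPM in DMSO. Both fell with GTEA1 (log2 -0.35 ± 0.034 and -0.33 ± 0.042) with no overlap with DMSO, and with GTEA7 neither passed (0.039 ± 0.034 and 0.072 ± 0.041), their libraries overlapping those of DMSO. FKBP4, an immunophilin of steroid receptor complexes, and PTGES3, the p23 protein that steadies closed HSP90, moved less with GTEA1, by -0.14 ± 0.038 and -0.13 ± 0.037. Both rose with GTEA7, by 0.13 ± 0.037 and 0.19 ± 0.037. For PTGES3 with GTEA1 the libraries overlapped those of DMSO, because GTEA1 replicate 1 had 376 CPM, beside 374 CPM in the lowest DMSO library. CDC37, which brings kinases to HSP90, ranged over 188 to 203 CPM in GTEA1, 196 to 207 CPM in GTEA7 and 201 to 211 CPM in DMSO, and the groups overlapped. Its fall of -0.092 ± 0.036 with GTEA1 passed (adjusted p = 0.0196) but no longer did so without the filter on low counts or without GTEA1 replicate 2, GTEA1 replicate 4, DMSO replicate 2 or DMSO replicate 3 (adjusted p from 0.0519 to 0.0912).

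In the group of HSP70 proteins, their HSP110 exchange factors and BAG3, all 4 genes that could be tested fell with GTEA1. With GTEA7 3 of them rose. Among all genes tested, 36.2% fell with GTEA1 and 12% rose with GTEA7. HSPA8, the constitutive HSP70 of the cytosol, had 979, 929, 1053 and 888 CPM in the GTEA1 libraries, 1801, 1821, 1846 and 1697 CPM in the GTEA7 libraries and 1479.5, 1559 and 1522 CPM in the DMSO libraries. The 3 groups did not overlap. GTEA1 was 1.58-fold lower than DMSO (log2 -0.66 ± 0.041, adjusted p = 1.01e-17) and GTEA7 1.18-fold higher (0.24 ± 0.041, adjusted p = 2.81e-05). HSPH1, an HSP110 protein that resets HSP70, had 131, 117, 119 and 125 CPM in the GTEA1 libraries, 199, 203, 208 and 198 CPM in the GTEA7 libraries and 192, 181 and 185 CPM in the DMSO libraries. It was lower in every GTEA1 library, by 1.51-fold (log2 -0.59 ± 0.038, adjusted p = 1.98e-19). Its rise of 0.12 ± 0.037 with GTEA7 (adjusted p = 0.0148) was lost without GTEA7 replicate 3, DMSO replicate 2 or DMSO replicate 3 (adjusted p from 0.0507 to 0.110). HSPA4, another HSP110 protein, ranged over 308 to 326 CPM in GTEA1, 372 to 391 CPM in GTEA7 and 331 to 338 CPM in DMSO. Its fall with GTEA1 was small (-0.086 ± 0.034, adjusted p = 0.0209) and did not pass without the filter on low counts or without GTEA1 replicate 2, GTEA1 replicate 3 or DMSO replicate 1 (adjusted p from 0.0556 to 0.0975), while its rise with GTEA7 was 0.20 ± 0.033. BAG3, which links HSP70 to small heat shock proteins and to selective autophagy, had 49.2, 48.6, 47.9 and 43.7 CPM in the GTEA1 libraries, 63.4, 63.2, 64.9 and 63.0 CPM in the GTEA7 libraries and 64.2, 65.5 and 65.8 CPM in the DMSO libraries. The GTEA1 libraries lay below all others (log2 -0.46 ± 0.047, adjusted p = 1.42e-12), and with GTEA7 the change of -0.035 ± 0.044 did not pass.

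HSPA1A and HSPA1B, the near-identical heat-inducible HSP70 genes, were listed at or near 0 throughout and were not tested. HSPA1A had 0 counts in GTEA1, 0 in GTEA7 and 3 in DMSO, and HSPA1B had 0 in GTEA1, 1 in GTEA7 and 0 in DMSO. A count of 0 over a group allows up to 0.0492 CPM in GTEA1, 0.0441 CPM in GTEA7 and 0.0631 CPM in DMSO, for counting error and assigned reads only. Their transcripts in GENCODE v29 share 69.88% of the 100-base windows of HSPA1A with HSPA1B, and how the counting treated reads that match both is not given in the sources used here. Of the 69 other protein-coding genes that start within 500 kb of HSPA1A in GENCODE v29, 26 were also listed at 0 in all 11 libraries. These include CSNK2B, the regulatory subunit of casein kinase 2, and DDX39B, a helicase of splicing and RNA export, both of which dividing cells use. BAG6 and CLIC1, also among them, had 21479 and 25797 counts. Only listed values can be given for this stretch, and these neighbours were picked after their values were seen.

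**Figure D2:**
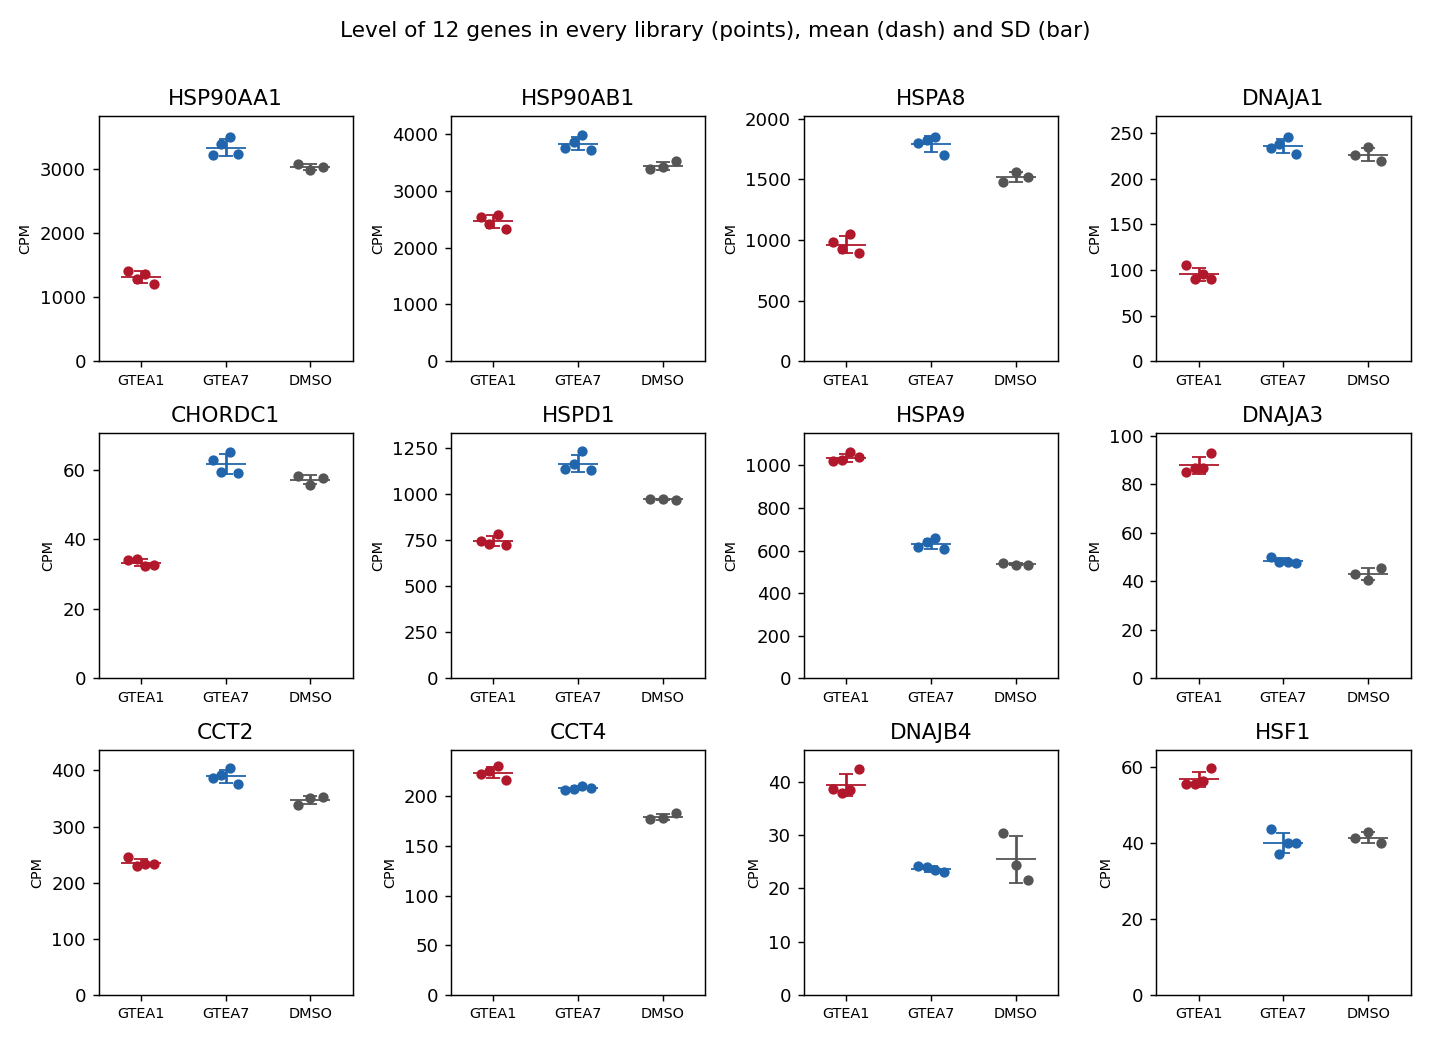
CPM of 12 genes in each of the 11 libraries (points), with the group mean (dash) and SD (bar), axes starting at 0, GTEA1 left, GTEA7 in the middle and DMSO right. HSP90AA1 lies between 1206 and 1414 in GTEA1, against 2979 to 3070 in DMSO, while HSPA9, DNAJA3, DNAJB4, CCT4 and HSF1 lie higher in GTEA1 than in DMSO.

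The 5 cytosolic J-domain proteins, which deliver clients to HSP70 and start its ATPase, did not move together with GTEA1. DNAJA1 had 105, 90.5, 96.0 and 90.0 CPM in the GTEA1 libraries, 234, 238, 246 and 227 CPM in the GTEA7 libraries and 226, 234 and 219.7 CPM in the DMSO libraries. Its GTEA1 libraries lay far below all others, and its fall of 2.38-fold was the deepest among the 33 genes (log2 -1.25 ± 0.041, adjusted p = 2.01e-30). With GTEA7 it overlapped DMSO (0.060 ± 0.039, adjusted p = 0.296). DNAJA2, its close relative, ranged over 107 to 115 CPM in GTEA1, 118 to 126 CPM in GTEA7 and 107 to 111 CPM in DMSO. It did not pass with GTEA1 (0.025 ± 0.040, adjusted p = 0.577) and rose with GTEA7 (0.15 ± 0.039, adjusted p = 0.0027). DNAJB1, the best known heat-inducible J-domain partner of HSP70, ranged over 106 to 125 CPM in GTEA1, 144 to 153 CPM in GTEA7 and 135 to 142 CPM in DMSO. It fell with GTEA1 (-0.25 ± 0.043, adjusted p = 1.58e-06) and rose with GTEA7 (0.12 ± 0.042, adjusted p = 0.025), a rise that did not pass in 5 of the 11 fits that leave out 1 library each, those without GTEA7 replicates 1, 2 or 3 or DMSO replicates 1 or 3 (adjusted p from 0.0602 to 0.110). DNAJB4, from the same subclass as DNAJB1, was higher with GTEA1 and had 38.7, 37.9, 38.5 and 42.4 CPM in the GTEA1 libraries, 24.1, 24.1, 23.4 and 23.1 CPM in the GTEA7 libraries and 30.4, 24.4 and 21.6 CPM in the DMSO libraries. All GTEA1 libraries lay above the DMSO libraries, whose spread was wide for this gene, and the rise was 1.54-fold (log2 0.62 ± 0.071, adjusted p = 7.96e-10). With GTEA7 its change of -0.11 ± 0.074 did not pass, but it passed at -0.21 without DMSO replicate 3 and was 0.035 without DMSO replicate 1. DNAJB6, which holds back protein aggregates, ranged over 92.3 to 98.0 CPM in GTEA1, 96.0 to 106 CPM in GTEA7 and 95.1 to 97.8 CPM in DMSO and passed with neither extract. Its 8 pseudogenes in the table held 4.59% as many counts as DNAJB6 itself.

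HSPB1, also called HSP27, is a small heat shock protein that binds unfolding chains without ATP. It had 54.9, 54.4, 52.3 and 48.9 CPM in the GTEA1 libraries, 75.7, 77.3, 73.7 and 74.0 CPM in the GTEA7 libraries and 74.8, 80.8 and 83.5 CPM in the DMSO libraries. The GTEA1 libraries lay below all others, a fall of 1.51-fold (log2 -0.60 ± 0.046, adjusted p = 2.09e-16). GTEA7 overlapped DMSO (-0.082 ± 0.044, adjusted p = 0.184).

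Of the 5 mitochondrial chaperones, 3 rose and 2 fell with GTEA1, beside 35.6% and 36.2% of all genes tested. With GTEA7 all 5 of these chaperones rose, beside 12% of all genes tested. Their summed level was 1953 to 2052 CPM in GTEA1, 1916 to 2075 CPM in GTEA7 and 1662 to 1665 CPM in DMSO. HSPA9, the HSP70 of the matrix, had 1021, 1025, 1061 and 1040.4 CPM in the GTEA1 libraries, 618, 641, 661 and 609 CPM in the GTEA7 libraries and 539.8, 533 and 534 CPM in the DMSO libraries. Both extracts lay above DMSO with no overlap, GTEA1 by 1.94-fold (log2 0.95 ± 0.035, adjusted p = 1.33e-29) and GTEA7 by 1.18-fold (0.24 ± 0.034, adjusted p = 3.55e-07). DNAJA3, the J-domain partner of HSPA9, had 85.1, 86.5, 86.4 and 92.7 CPM in the GTEA1 libraries, 50.1, 48.1, 47.7 and 47.6 CPM in the GTEA7 libraries and 43.0, 40.5 and 45.4 CPM in the DMSO libraries. It rose 2.05-fold with GTEA1 (log2 1.03 ± 0.047, adjusted p = 2.08e-25), the largest rise among the 33 genes, and by 0.17 ± 0.049 with GTEA7, a change that did not pass without DMSO replicate 2 (adjusted p = 0.0993). HSPD1, the HSP60 ring of the matrix, had 748, 730.0, 784 and 725 CPM in the GTEA1 libraries, 1139.7, 1162, 1233 and 1133 CPM in the GTEA7 libraries and 973, 975 and 969 CPM in the DMSO libraries. The GTEA1 libraries were lowest and the GTEA7 libraries highest, with changes of -0.38 ± 0.035 (adjusted p = 8.56e-14) and 0.26 ± 0.035 (adjusted p = 8.32e-08).

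HSPE1, the HSP10 lid of that ring, had few counts and moved in the same direction as HSPD1. It had 9.43, 9.18, 10.1 and 9.51 CPM in the GTEA1 libraries, 16.6, 22.1, 21.9 and 20.6 CPM in the GTEA7 libraries and 14.9, 18.0 and 15.5 CPM in the DMSO libraries. GTEA1 lay below DMSO in every library (log2 -0.76 ± 0.096, adjusted p = 1.69e-09), while GTEA7 replicate 1 lay within the DMSO range and the rise with GTEA7 was 0.33 ± 0.083 (adjusted p = 0.00238). HSPE1 counts are uncertain: 33.49% of the 100-base windows of its transcript occur in other genes of GENCODE v29. A search for its pseudogenes and for HSPE1-MOB4, a gene that overlaps it on the same strand, found 27 entries. Together they held 18.0% as many counts as HSPE1 itself. HSPD1 and HSPE1 lie head to head, and their transcripts overlap on opposite strands over 14.21% of the exonic bases of HSPE1. Their promoter windows cover the same stretch of chromosome 2, chr2:197500225-197500524 on the minus strand for HSPD1 and chr2:197500129-197500428 on the plus strand for HSPE1. The window is shown from HSPD1 because the 2 genes moved in the same direction with each extract. It holds no match to the 2-unit or 3-unit letters.
HSPD1: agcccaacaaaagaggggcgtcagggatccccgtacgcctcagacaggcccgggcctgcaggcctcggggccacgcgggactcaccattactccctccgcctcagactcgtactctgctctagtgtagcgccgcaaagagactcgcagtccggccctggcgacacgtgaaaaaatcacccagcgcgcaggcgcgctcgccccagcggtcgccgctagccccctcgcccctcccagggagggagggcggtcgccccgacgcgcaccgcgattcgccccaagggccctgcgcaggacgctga

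TRAP1, the HSP90 of mitochondria, ranged over 100.1 to 112 CPM in GTEA1, 105 to 116 CPM in GTEA7 and 91.7 to 102 CPM in DMSO. Its rise of 0.13 ± 0.043 with GTEA1 (adjusted p = 0.00675) came with overlapping libraries and did not pass without DMSO replicate 1 (adjusted p = 0.0929). The rise with GTEA7 was 0.20 ± 0.043 (adjusted p = 3.48e-04) with no overlap. DNASE1 lies on the other strand over 29.29% of the exonic bases of TRAP1 in GENCODE v29, and since a strand setting is not given, reads of the pair cannot be told apart.

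**Figure D3:**
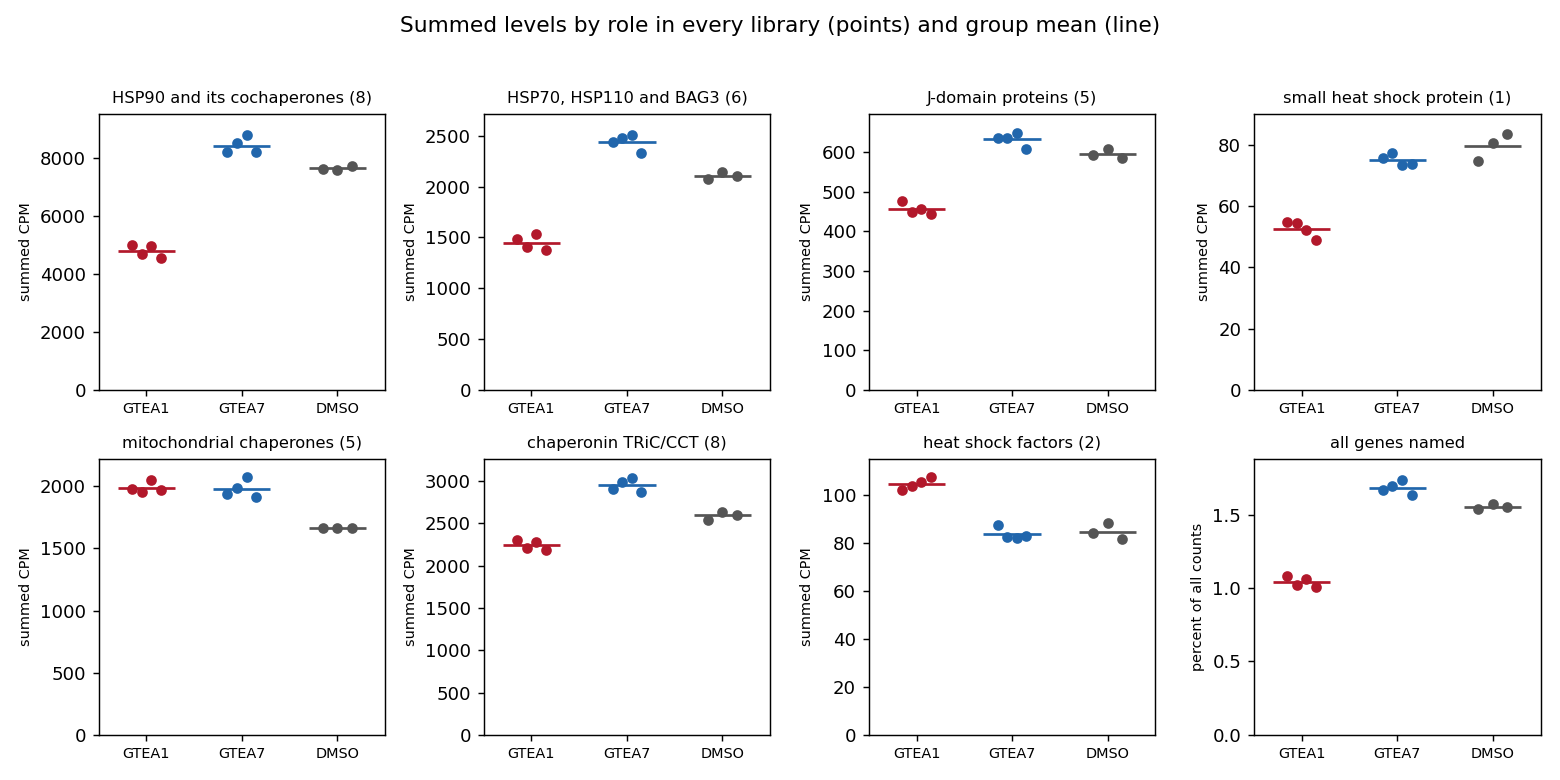
Summed CPM of each role group in every library (points) with the group mean (line), and in the last panel the percent of all counts taken by the 35 genes, GTEA1 left, GTEA7 in the middle and DMSO right, axes from 0. Mitochondrial chaperones lie above DMSO with both extracts, while HSP90, HSP70, J-domain and TRiC sums lie below DMSO with GTEA1 and, apart from 1 GTEA7 library of the J-domain group, above it with GTEA7.

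The 8 subunit genes of TRiC all rose with GTEA7, by 0.13 (CCT5) to 0.26 (CCT6A) on the log2 scale, and in each the GTEA7 libraries lay above every DMSO library, as in 15.6% of all genes tested. Among all genes tested, 12% rose with GTEA7. With GTEA1 6 of the 8 subunit genes fell and 2 rose, beside 36.2% and 35.6% of all genes tested. The complex is built from all of these subunits, and the genes are set beside each other per transcript length, as CPM per kilobase of the longest GENCODE v29 transcript. On that scale CCT3 was highest in each group, at 201 ± 6.81 in GTEA1, 293 ± 5.58 in GTEA7 and 253 ± 8.43 in DMSO. CCT5 was lowest, at 54.6 ± 2.02 in GTEA1, 75.9 ± 2.74 in GTEA7 and 69.6 ± 3.05 in DMSO, next to CCT4, from which it did not differ in DMSO beyond the SDs (71.3 ± 1.20 for CCT4). The lengths differ between transcripts of a gene, so this order is approximate.

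CCT2 fell most with GTEA1 among the subunits. It had 245, 229, 233 and 233 CPM in the GTEA1 libraries, 386, 392, 404 and 376 CPM in the GTEA7 libraries and 338, 351 and 353 CPM in the DMSO libraries. The 3 groups did not overlap, with changes of -0.56 ± 0.035 for GTEA1 (adjusted p = 3.48e-20) and 0.17 ± 0.034 for GTEA7 (adjusted p = 2.21e-04). CCT4 rose with both extracts and had 223, 226, 231 and 217 CPM in the GTEA1 libraries, 207, 208, 211 and 209 CPM in the GTEA7 libraries and 177, 179 and 183 CPM in the DMSO libraries. Here GTEA1 was highest and DMSO lowest, again with no overlap (0.32 ± 0.035, adjusted p = 1.19e-11 for GTEA1 and 0.22 ± 0.034, adjusted p = 3.14e-06 for GTEA7). A gene of unknown role, AC107081.2, overlaps CCT4 on the other strand over 9.72% of its exonic bases. CCT6A ranged over 356 to 373 CPM in GTEA1, 394 to 418 CPM in GTEA7 and 338 to 346 CPM in DMSO, and its small rise with GTEA1 (0.089 ± 0.034, adjusted p = 0.0171) did not pass without DMSO replicate 3 (adjusted p = 0.0732). Its 4 pseudogenes held 3.83% as many counts.

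CCT3, CCT5 and CCT7 fell with GTEA1, with log2 changes of -0.33 ± 0.034, -0.35 ± 0.037 and -0.42 ± 0.037, all without overlap with DMSO. TCP1, the alpha subunit, and CCT8 fell by less, with -0.14 ± 0.035 and -0.15 ± 0.034, also without overlap. CCT3 ranged over 415 to 447 CPM in GTEA1, 619 to 640.5 CPM in GTEA7 and 526 to 562 CPM in DMSO. CCT7 ranged over 244 to 274 CPM in GTEA1, 368 to 391 CPM in GTEA7 and 328 to 355 CPM in DMSO. In these 5 genes every GTEA1 library lay below, and every GTEA7 library above, every DMSO library. The rises of CCT5 and CCT7 with GTEA7 did not pass without DMSO replicate 1 (adjusted p = 0.111 and 0.0567). ACAT2 overlaps TCP1 on the other strand over 8.05% of the exonic bases of TCP1. For CCT5, 46.39% of the 100-base windows of its longest transcript also occur in AC012640.4, which overlaps it on the other strand.

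**Figure D4:**
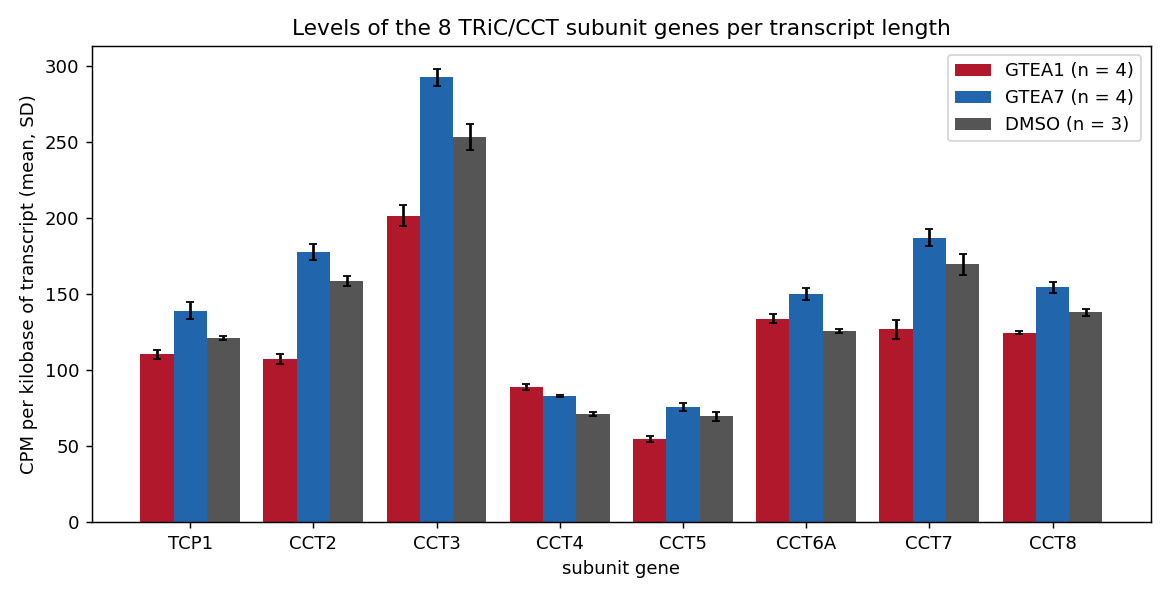
Mean CPM per kilobase of the longest transcript (bars from 0) with SD (n = 4, 4 and 3 libraries) of the 8 TRiC subunit genes in GTEA1 (left bar), GTEA7 (middle) and DMSO (right). CCT4 is the subunit whose GTEA1 bar (88.9) is the tallest of its 3, and CCT3 stands highest in all groups.

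HSF1, the main factor of the heat shock response, had 55.4, 55.4, 56.1 and 59.7 CPM in the GTEA1 libraries, 43.5, 37.0, 39.8 and 39.8 CPM in the GTEA7 libraries and 41.1, 42.9 and 40.0 CPM in the DMSO libraries. Every GTEA1 library lay above every other, a rise of 1.37-fold (log2 0.45 ± 0.052, adjusted p = 6.80e-11). GTEA7 overlapped DMSO (-0.051 ± 0.053, adjusted p = 0.543). HSF2, a related factor that can pair with HSF1, ranged over 46.4 to 49.0 CPM in GTEA1, 42.3 to 45.4 CPM in GTEA7 and 41.5 to 45.3 CPM in DMSO. Its rise with GTEA1 was small (0.14 ± 0.050, adjusted p = 0.0094) and did not pass without DMSO replicate 3 (adjusted p = 0.0638), and with GTEA7 it did not pass (0.016 ± 0.049). These are RNA levels, and the binding activity of HSF1, which is set mainly at the protein, was not measured.

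Set against each other, the extracts differed in 31 of the 33 genes, 25 higher and 6 lower in GTEA7 than in GTEA1, beside 36.2% of all genes tested that were higher and 36.4% that were lower. The 6 lower ones were DNAJA3 (log2 -0.86 ± 0.042), DNAJB4 (-0.74 ± 0.066), HSPA9 (-0.71 ± 0.031), HSF1 (-0.50 ± 0.048), HSF2 (-0.13 ± 0.046) and CCT4 (-0.10 ± 0.032), the last turning to 0.0044 when libraries were scaled by size alone, which moved the median of all genes tested to 0.109. HSF2 did not pass under that scaling (-0.019, adjusted p = 0.723) or without GTEA7 replicate 3 (adjusted p = 0.0549). HSP90AA1 (1.34 ± 0.038), DNAJA1 (1.31 ± 0.039) and HSPE1 (1.08 ± 0.086) were over 2-fold higher with GTEA7, beside 11.2% of all genes tested. CDC37 and TRAP1 did not pass (0.059 ± 0.033 and 0.069 ± 0.040, adjusted p = 0.104 and 0.111). CDC37 passed without GTEA1 replicate 3 or GTEA7 replicate 4 (adjusted p = 0.0337 and 0.0421), TRAP1 without GTEA1 replicate 1 or GTEA7 replicate 4 (adjusted p = 0.0216 and 0.0306), and both when libraries were scaled by size alone (0.17 and 0.18). DNAJB6, among the higher ones, did not pass without GTEA1 replicate 3 or GTEA7 replicate 1 (adjusted p = 0.0595 and 0.102). The median over the 33 genes was 0.37, beside 0.00039 over all genes tested. HSP90AB1, HSPA8, HSPD1 and CCT2 illustrate the 25 higher ones, at 0.64 ± 0.035, 0.90 ± 0.038, 0.64 ± 0.033 and 0.73 ± 0.032.

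Per kilobase of transcript, the order of the 35 genes was led in each group by HSP90AB1, at 921 ± 42.0 in GTEA1, 1432 ± 44.2 in GTEA7 and 1286 ± 26.1 CPM per kilobase in DMSO. HSP90AA1 stood at place 2 in GTEA7 (949 ± 36.8) and DMSO (862 ± 12.9), and in GTEA1 it stood at place 3, at 374 ± 25.6, next to HSPA8 at 391 ± 28.7, the pair not differing beyond their SDs. HSPA9 stood at place 5 in GTEA1 (219 ± 3.87), at place 12 in GTEA7 (134 ± 4.89) and at place 13 in DMSO (113 ± 0.815). DNAJA1 stood at place 21 in GTEA1, 15 in GTEA7 and 15 in DMSO. At the low end of the tested genes, CHORDC1 took place 33 in GTEA1 and DNAJB4 took it in GTEA7 and DMSO.

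Other genes of protein folding numbered 77, of which 73 were tested. With GTEA1 29 rose, 22 fell and 22 did not pass, beside 35.6% of all genes tested that rose and 36.2% that fell. Their median was 0.070, beside -0.0078 over all genes tested. With GTEA7 17 rose and 3 fell, beside 12% of all genes tested that rose and 10.4% that fell. The median was then 0.071, beside -0.0087. The same shares of all genes apply to the counts of each list below. Of the rises with GTEA7 among the genes named, those of NUDC, SUGT1, DNAJC8, PFDN4, VBP1, YME1L1, AFG3L2 and HSBP1 did not pass when libraries were scaled by size alone (adjusted p from 0.0505 to 0.226). Of 12 further HSP90 cochaperones, 6 rose and 4 fell with GTEA1. FKBP5, the immunophilin that restrains the glucocorticoid receptor, fell to 61.7 ± 3.55 CPM in GTEA1, against 159 ± 4.12 CPM in GTEA7 and 136 ± 4.56 CPM in DMSO (log2 -1.15 ± 0.042, adjusted p = 2.36e-29 for GTEA1, and 0.22 ± 0.039, adjusted p = 1.61e-05 for GTEA7). CDC37L1, a relative of CDC37, rose with GTEA1 by 0.70 ± 0.060. NUDC and SUGT1, both HSP90-binding, rose with GTEA7 by 0.12 ± 0.038 and 0.12 ± 0.040. The rise of NUDC did not pass without GTEA7 replicate 3 or DMSO replicates 1 or 2 (adjusted p from 0.0695 to 0.136), nor that of SUGT1 without GTEA7 replicates 1 or 3 or DMSO replicate 3 (adjusted p from 0.0635 to 0.196).

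Of 13 tested HSP70 relatives and exchange factors, 1 rose and 7 fell with GTEA1. The riser was GRPEL2, an exchange factor of HSPA9, at 85.8 ± 2.14 CPM in GTEA1, 56.7 ± 3.02 CPM in GTEA7 and 53.1 ± 1.26 CPM in DMSO (log2 0.69 ± 0.045 for GTEA1, adjusted p = 5.16e-19). BAG1, another exchange factor, and HSPA2, an HSP70 best known from the testis, fell, with log2 changes of -0.55 ± 0.052 and -2.49 ± 0.23, the second at low levels (0.671 ± 0.167 CPM in GTEA1, 3.10 ± 0.531 CPM in GTEA7 and 3.72 ± 0.721 CPM in DMSO). With GTEA7 4 of the 13 rose, among them BAG2 (0.30 ± 0.052), GRPEL1 (0.20 ± 0.048) and HSPA14 (0.27 ± 0.071), the last not passing without DMSO replicate 3 (adjusted p = 0.0523). HSPA6, the strictly heat-inducible HSP70, was not tested and averaged 0.016 CPM in GTEA1, 0.026 CPM in GTEA7 and 0.018 CPM in DMSO.

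The 18 further J-domain genes gave 9 rises and 5 falls with GTEA1. DNAJC15, of the mitochondrial inner membrane, fell, as did DNAJC5, of secretory vesicles (log2 -1.10 ± 0.084 and -0.47 ± 0.040), while DNAJC21, of ribosome assembly, rose by 0.46 ± 0.043. With GTEA7 2 rose and 2 fell: DNAJC2, a ribosome-bound partner of HSP70, rose by 0.28 ± 0.048, DNAJC8 by 0.13 ± 0.040, and DNAJB2 and DNAJC5 fell (log2 -0.28 ± 0.059 and -0.10 ± 0.038). The rise of DNAJC8 did not pass without GTEA7 replicates 2 or 3 or DMSO replicate 1 (adjusted p from 0.0737 to 0.0918). DNAJB2, DNAJC15 and DNAJC8 differed between the extracts by -0.84 ± 0.053, 1.12 ± 0.078 and 0.42 ± 0.038 (GTEA7 over GTEA1). Of the genes listed by name as small heat shock proteins, HSPB11 (also IFT25) fell with GTEA1 (-0.58 ± 0.060). CRYAB rose at levels near 1 CPM (1.69 ± 0.222 CPM in GTEA1, 0.77 ± 0.248 CPM in GTEA7 and 0.585 ± 0.334 CPM in DMSO, log2 1.48 ± 0.30), and HSPB8 did not pass (0.00014 ± 0.15).

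Prefoldin hands actin and tubulin to TRiC. PFDN2, one of its subunits, had the largest rise among these genes, with 147, 164, 172 and 175 CPM in the GTEA1 libraries, 36.3, 40.7, 39.3 and 37.8 CPM in the GTEA7 libraries and 35.0, 36.3 and 33.3 CPM in the DMSO libraries. All GTEA1 libraries lay above the others, at 4.71 times the DMSO level (log2 2.24 ± 0.053, adjusted p = 7.44e-33), and the change with GTEA7 was 0.14 ± 0.059 (adjusted p = 0.0781). PFDN5 and PFDN4 rose by 0.51 ± 0.042 and 0.46 ± 0.061 with GTEA1, and in all 4 of these 10 genes rose and 2 fell. With GTEA7 4 rose, among them PDCL3, a TRiC partner (0.29 ± 0.059), PFDN4 (0.21 ± 0.061) and VBP1, another prefoldin subunit (0.16 ± 0.048). The rise of PFDN4 with GTEA7 did not pass without DMSO replicates 2 or 3 (adjusted p = 0.0859 and 0.0875), nor that of VBP1 without GTEA7 replicate 3 or DMSO replicates 2 or 3 (adjusted p from 0.0540 to 0.0755). TXNDC9, a TRiC-binding protein, was higher in GTEA7 than in GTEA1 by 0.57 ± 0.070.

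Of 8 further genes of mitochondrial protein quality control, 4 rose and 1 fell with GTEA1. LONP1, the main protease of the matrix, had 178, 187, 185 and 189 CPM in the GTEA1 libraries, 90.2, 91.0, 96.2 and 85.3 CPM in the GTEA7 libraries and 95.7, 97.7 and 91.6 CPM in the DMSO libraries. The GTEA1 libraries stood above all others (log2 0.96 ± 0.040, adjusted p = 4.28e-27), while GTEA7 did not pass (-0.067 ± 0.041). YME1L1, a protease of the inner membrane, and CLPX, a matrix unfoldase, rose by 0.70 ± 0.034 and 0.38 ± 0.041 with GTEA1 and by 0.11 ± 0.033 and 0.19 ± 0.041 with GTEA7, as did AFG3L2 with GTEA7 (0.16 ± 0.046). The rise of AFG3L2 did not pass without DMSO replicates 1 or 2 (adjusted p = 0.0548 and 0.0659). SPG7 was lower in GTEA7 than in GTEA1 (-0.31 ± 0.032).

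Among 9 targets and regulators of heat shock factors, 4 rose and 2 fell with GTEA1. ZFAND2A, a stress-induced protein of the proteasome, had 19.9, 21.1, 19.9 and 21.8 CPM in the GTEA1 libraries, 7.20, 6.09, 6.55 and 6.04 CPM in the GTEA7 libraries and 6.17, 6.15 and 5.52 CPM in the DMSO libraries. It stood 3.46-fold higher with GTEA1 (log2 1.79 ± 0.093, adjusted p = 4.77e-23), with no overlap, and with GTEA7 it did not pass (0.12 ± 0.11). SERPINH1, the collagen chaperone HSP47, also rose (0.86 ± 0.048), while HSBP1, a small protein that binds HSF1, fell with GTEA1 (-0.60 ± 0.039) and rose with GTEA7 (0.12 ± 0.038). That rise did not pass without GTEA7 replicates 2 or 3 or DMSO replicates 1 or 3 (adjusted p from 0.0743 to 0.0886). IER5, which acts on HSF1 phosphorylation, fell with GTEA7 (-0.30 ± 0.056), and HSF4 did not pass (-0.19 ± 0.095) except without DMSO replicate 2, at -0.30 (adjusted p = 0.0321).

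Total counts ranged from 13742326 to 16433111 in GTEA1, from 14955685 to 19304211 in GTEA7 and from 13866350 to 17431515 in DMSO, and the 33 tested genes had 123 to 75273 counts per library. The 35 genes took 1.01% to 1.08% of all counts in GTEA1, 1.64% to 1.74% in GTEA7 and 1.54% to 1.57% in DMSO. Genes encoded by mitochondrial DNA took on average 13.1% in GTEA1, 15.1% in GTEA7 and 14.5% in DMSO. All 6 epithelial markers (EPCAM, KRT8, KRT18, KRT19, CDH1, VIL1) had counts in every library, VIL1 at low levels (0.105 CPM in GTEA1, 0.206 CPM in GTEA7 and 0.156 CPM in DMSO on average), and summed to 2709 to 2839 CPM in GTEA1, 2217 to 2312 CPM in GTEA7 and 2221 to 2369 CPM in DMSO. The 9 markers of leukocytes, endothelium and fibroblasts summed to 39.7 to 44.7 CPM in GTEA1, 36.1 to 46.8 CPM in GTEA7 and 52.4 to 55.0 CPM in DMSO, nearly all of it COL1A1, with CD3E at 0 in all libraries, COL1A2, DCN and CD68 at 0 in GTEA7 and CD68 at 0 in DMSO. The part of these marker levels in the results above was not tested.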

How the data were processed

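HCT116 polyA RNA was sequenced in 11 libraries, made with a NEBNext Ultra kit per the labels. The authors deposited 1 table of raw read counts per gene, with no normalization, and every library column was used. The submitters' processing notes list HTSeq 0.5.4, DESeq 1.10.1, SAMtools 0.1.18, STAR, GATK and Picard, with no role for any. No source used here gives the build, the annotation or whether counting used strand. Symbols came from a table of gene names (60370 of 60624 Ensembl IDs), and IFT25 was matched for HSPB11 by its older name.

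Groups came from the labels. Genes were kept by filterByExpr and scaled by TMM factors, also for CPM. All 11 libraries entered 1 quasi-likelihood model (robust, group only) in edgeR 4.0.16 under R 4.3.3, and its F test was adjusted by Benjamini-Hochberg over 17963 genes. The standard error is the log2 fold change divided by the square root of F. The method was tested on simulated data in which only a small part of the genes changed. That test does not cover the scaling where most genes change, as they did with GTEA1. Depth was 13742326 to 19304211 counts per library. The limits given for a count of 0 cover counting error only, while SDs and standard errors include the spread between libraries. Replicate numbers do not pair the libraries: deviations of libraries with the same number correlated between -0.058 and 0.0365. Alternatives were DESeq2 size factors, library size only, other filters on low counts, a replicate block, pairwise fits, the Wald test of DESeq2 1.42.0, limma-voom 3.58.1 and leaving out each library.

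All 35 genes are named whatever their values. Of the other pathway genes, the 3 with the smallest adjusted p per list and comparison are named, except 1 that is not reported here. The genes and lists were chosen with earlier results of these data known. HSPA1A and HSPA1B had too few counts to test.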

Additional observations from a re-analysis of the deposited data

Results flagged for a closer look

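Within the groups of 4, libraries that stood apart from the other 3 by Dixon's test at the 95% level were looked for. The test was run on 69 sets of values, and 6 were found. These sets were the levels of single genes, where they varied, and the share of all counts taken by the 35 genes. Chance singles out about 1 in 20. AHSA1 had 90.3 CPM in GTEA1 replicate 1, beside 82.4 to 83.2 CPM in the other GTEA1 libraries, and PTGES3 had 376 CPM in the same library, beside 343 to 345 CPM. HSF1 had 59.7 CPM in GTEA1 replicate 4, beside 55.4 to 56.1 CPM in the others. In GTEA7, AHSA1 had 109 CPM in replicate 4, beside 112 to 113 CPM, and TCP1 had 368 CPM in replicate 3, beside 339 to 344 CPM. HSPA1B was singled out in GTEA7 replicate 3 by 1 count (0.0590 CPM), the other GTEA7 libraries being at 0. Leaving out these libraries 1 at a time did not change the call of AHSA1, PTGES3, HSF1 or TCP1 in any of the 3 comparisons.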

How the results depend on the processing

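Of 627 gene-by-setting results per comparison (33 genes, 19 settings), 610 for GTEA1 over DMSO, 600 for GTEA7 over DMSO and 616 for GTEA7 over GTEA1 kept their direction and call. Library size as the only scaling changed most. Under it 5 members rose with GTEA1 in place of 8, with a median of -0.41 in place of -0.25. With GTEA7 14 rose and 1 fell (HSPB1), with a median of 0.090 in place of 0.14, and the median for GTEA7 over GTEA1 was 0.48 in place of 0.37. All genes tested with GTEA7 were then 1255 higher and 2954 lower, in place of 2159 and 1877. Signs that turned under it were DNAJA2 (-0.13), TRAP1 (-0.029), CCT6A (-0.070), HSF2 (-0.016) and HSPB8 (-0.16) for GTEA1 over DMSO, STIP1 (-0.012) and HSF2 (-0.035) for GTEA7 over DMSO, and CCT4 (0.0044) for GTEA7 over GTEA1.

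Leaving out 1 library at a time moved the GTEA1 median between -0.28 and -0.20, and gave 0 to 1 members lower with GTEA7 (DNAJB4 without DMSO replicate 3). Over these fits, 4 genes that did not pass with all libraries crossed 0: DNAJB4 with GTEA7 (-0.21 to 0.035), HSF2 with GTEA7 (-0.010 to 0.054), HSPB8 with GTEA1 (-0.099 to 0.054) and HSPB11 with GTEA7 (-0.022 to 0.0031). HSPB8 also read -0.0028 with the 1 CPM filter, -0.0085 in the pairwise fit and -0.0085 in limma-voom, and HSPB11 0.0052 without a filter.

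With the replicate block the GTEA1 median was -0.22, HSPB8 read -0.010 and no member changed its call or sign. Outside mitochondrially encoded genes, the 35 genes took 1.20% of counts in GTEA1, 1.98% in GTEA7 and 1.82% in DMSO. The sum of HSPA1A and HSPA1B also had too few counts to test. The causes of these shifts were not tested. HSPE1 had the fewest counts of the tested genes, with 123 in its lowest library.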
